A study of Homo sapiens with 18 samples.

Results

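The 39 genes described here make, place or survey the ends of transcripts made by RNA polymerase II. They encode the cleavage and polyadenylation machinery (20 genes), termination factors (6) and the Integrator complex (13). They were picked by gene symbol in GENCODE release 29 from the 58051 gene identifiers of the count tables. The rule held no measured value, but the genes were chosen with earlier results of these data known. All 39 were found, and all 39 were among the 15055 genes that passed the filter on low counts. The study treated KBM7 cells, a human leukaemia line, for 5 h and sequenced poly-A enriched RNA with added spike-in RNA in 6 groups of 3 libraries. The groups were dCeMM-2, dCeMM-3, dCeMM-4 and dCeMM-1, each at 10 times its EC50, THZ531 at 600 nM, and DMSO, the solvent. dCeMM-1 is known to cause loss of the splicing factor RBM39, whereas dCeMM-2, dCeMM-3 and dCeMM-4 are known to cause loss of cyclin K, the partner of CDK12 and CDK13. THZ531 is known to inhibit both kinases covalently. The labels name 1 cell line and do not say whether replicate libraries were grown as separate cultures, so p-values measure only the spread between these libraries.

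As background, a nascent transcript is cut downstream of a hexamer called the poly(A) signal. The cleavage and polyadenylation specificity factor (CPSF) reads the hexamer and makes the cut, the cleavage stimulation factor (CstF) holds sequence downstream of it, cleavage factor I holds sequence upstream of it, and cleavage factor II links the complex to the polymerase. A poly(A) polymerase then adds the tail, while termination factors slow the polymerase and remove it from the DNA. Integrator is a separate cutting complex that trims the precursors of small nuclear RNAs (snRNAs) and ends many transcripts close to their promoters. CDK12 and CDK13 phosphorylate the tail of the polymerase, and loss of CDK12 is known for early use of poly(A) sites inside introns.

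Gene counts per library ranged from 4598576, in DMSO replicate 3, to 17943571. The spike-in share of gene plus spike-in counts was 0.512% ± 0.0783 with dCeMM-2, 0.542% ± 0.0699 with dCeMM-3, 0.234% ± 0.0497 with dCeMM-4, 0.531% ± 0.0992 with THZ531 and 0.176% ± 0.0193 with dCeMM-1, against 0.179% ± 0.0200 in DMSO (mean ± SD, n = 3 each). THZ531 replicate 1 stood apart from THZ531 replicates 2 and 3, with a chi-square per degree of freedom of 17.2 and 18.9 over genes against 1.43 between replicates 2 and 3. Replicates of the other groups differed too, by up to 14.8 with dCeMM-3, 14.5 with dCeMM-4, 13.6 with dCeMM-2, 8.12 in DMSO and 5.35 with dCeMM-1. Without THZ531 replicate 1, 31 of the 39 genes were called lower with THZ531, against 30 with it. Of 10 myeloid markers, 9 had at least 1 CPM in DMSO, among them MYB at 804.0 and SPI1 at 148.8 CPM, while MPO averaged 0.106 CPM. CPM is the count per 1000000 gene counts, TMM-scaled. Of 7 erythroid and megakaryocyte markers, HBB, HBG1 and PF4 had 0 counts in all 18 libraries, whereas GATA1 and ITGA2B averaged 3.95 and 1.43 CPM in DMSO. Of 8 epithelial, fibroblast and endothelial markers, 3 had at least 1 CPM in DMSO: KRT18 at 50.2, PECAM1 at 39.7 and KRT8 at 14.6. T-cell CD3D averaged 65.1 CPM in DMSO. The summed CPM of the 10 myeloid markers, a list that holds BCR and ABL1 too, was 385.4 to 393.3 with dCeMM-2, 262.3 to 281.6 with dCeMM-3, 1029 to 1117 with dCeMM-4, 289.9 to 307.1 with THZ531 and 1041 to 1100 with dCeMM-1, against 1142 to 1225 in DMSO. MYB made up most of the DMSO sum and averaged 187.5 CPM with dCeMM-2 and 91.1 with dCeMM-3, so the sum does not describe each marker. CD33 went the other way, from 27.2 CPM in DMSO to 39.2 with dCeMM-2, and so did LYZ, from 4.32 to 7.04. Of 6 lymphoid markers 4 had at least 1 CPM in DMSO, and they summed to 156.0 to 170.2 with dCeMM-2, 160.0 to 195.8 with dCeMM-3, 81.5 to 85.9 with dCeMM-4 and 160.2 to 174.5 with THZ531, against 71.3 to 78.8 in DMSO. The part of these shifts in the results was not tested.

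The poly(A) signals at the annotated 3′ ends of these genes are shown because they are what the machinery itself reads. The last 40 bases of 31 of the 39 representative transcripts (79.5%) held the letters AATAAA, 2 held ATTAAA and not AATAAA, and 6 held neither, against 58.4%, 13.2% and 28.4% of 19414 protein-coding genes searched the same way on the sense strand. These 19414 include genes that did not pass the filter on low counts, whereas all 39 members passed it, so the 2 sets are unlike. The 30-base windows below come from GENCODE release 29 on GRCh38, run 5′ to 3′ on the gene's strand, and carry the hexamer in capitals where there is one. They show members that fell most, members that rose on the TMM scale, and examples with ATTAAA or without either hexamer.
PPP1R10, chr6:30600403-30600432, minus strand: AATAAAcagtggaaagagaagcagcttatt
CSTF1, chr20:56406340-56406369, plus strand: gaAATAAActttatatacaatgataagcta
INTS5, chr11:62646848-62646877, minus strand: taAATAAAatttgccaacttgagaaaacca
CLP1, chr11:57661839-57661868, plus strand: tttAATAAAtatttttgccatatcatagaa
CPSF2, chr14:92172116-92172145, plus strand: caattgtgaAATAAAcagattctgaaggtc
PAPOLA, chr14:96567082-96567111, plus strand: tgaaaacacAATAAAaaaaaaacagcacaa
NUDT21, chr16:56429133-56429162, minus strand: tcatttcAATAAAaaatatttgaaagagaa
INTS3, chr1:153774779-153774808, plus strand: ctgtcccaATTAAAaccaggatggagagca
CPSF4, chr7:99457342-99457371, plus strand: ttttatgaaatggATTAAAgcttgtttttt
WDR82, chr3:52254421-52254450, minus strand: tacagtcttaaacagaattttatggctgca
PCF11, chr11:83187422-83187451, plus strand: gttgacctaagaacagctgagtatgggtgc
PPP1R10, CSTF1 and INTS5, which fell most with THZ531, had AATAAA, and so had PAPOLA and NUDT21, which rose on the TMM scale and fell with THZ531 on the spike-in scale. With THZ531 the 31 genes with AATAAA had a median log2 fold change of -1.06 and the other 8 a median of -1.22, and with dCeMM-3 the medians were -1.61 and -0.93. A match describes these letters in this window and is not a measured cleavage site.

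With dCeMM-2, dCeMM-3, dCeMM-4 and THZ531, most of the 39 genes fell relative to other genes, and with dCeMM-1 their TMM log2 fold changes lay between -0.55 and 0.55. Fold changes called TMM-scaled compare a gene with the bulk of genes, since TMM scaling sets that bulk near 0. A call is a Benjamini-Hochberg adjusted p (FDR) under 0.05 over all 15055 genes in edgeR's quasi-likelihood test. With dCeMM-2, 29 of the 39 fell and 7 rose, where 41.2% of all genes tested fell and 37.1% rose. With dCeMM-3, 33 fell and 5 rose, where 45.1% of all genes fell and 35.9% rose. With dCeMM-4, 26 fell and 10 rose, where 35.3% fell and 32.9% rose. With THZ531, 30 fell and 6 rose, where 43.7% fell and 35.8% rose. The median log2 fold change of the 39 genes was -0.99 with dCeMM-2, -1.51 with dCeMM-3, -0.56 with dCeMM-4 and -1.12 with THZ531, beside medians over all genes of -0.02, -0.15, 0.01 and -0.10. At least 2-fold falls were called for 19 members with dCeMM-2, 21 with dCeMM-3, 13 with dCeMM-4 and 22 with THZ531, beside 23.8%, 30.6%, 16.4% and 26.7% of all genes.

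These 4 comparisons share the DMSO libraries. In all 4 of them 24 members fell, as did 19.9% of all genes tested: CPSF2, CPSF3, CPSF4, CPSF7, WDR33, all 4 CstF genes, PCF11, PPP1R10, WDR82, SSU72 and 11 of the 13 Integrator genes. The count stayed at 24 when any 1 THZ531 library, replicate 1 included, was left out. Libraries of the other groups were not left out for this count. CPSF1, NUDT21 and PAPOLA rose in all 4 on the TMM scale, as did 12.2% of all genes, but none of these rises passed the threshold on the spike-in scale, where all 3 genes fell with dCeMM-2 and THZ531.

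**Figure D1:**
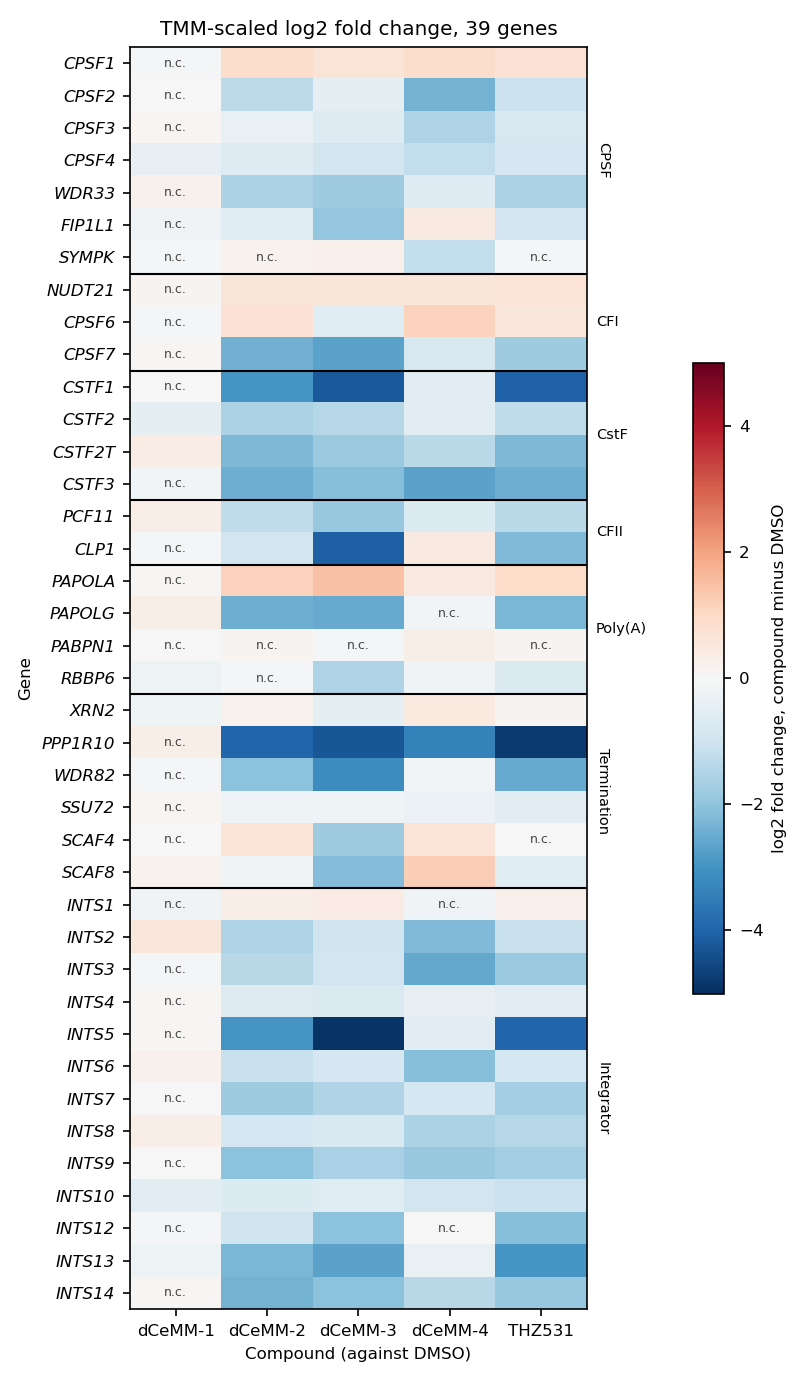
TMM-scaled log2 fold change of each of the 39 genes (rows, grouped by role) for each compound against DMSO (columns), with blue for lower, red for higher and "n.c." for genes past no threshold. On this scale most rows are blue in the columns of dCeMM-2, dCeMM-3, dCeMM-4 and THZ531 and pale with dCeMM-1; CPSF1, NUDT21 and PAPOLA are red in those 4 columns, but on the spike-in scale all 3 are lower with dCeMM-2 and THZ531.

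CPSF, the complex that recognises the hexamer and cuts, changed unevenly. Of its 7 genes, 5 fell and 1 rose with dCeMM-2, 5 fell and 2 rose with dCeMM-3, 5 fell and 2 rose with dCeMM-4, and 5 fell and 1 rose with THZ531. Among all genes tested 41.2%, 45.1%, 35.3% and 43.7% fell in the same order, and 37.1%, 35.9%, 32.9% and 35.8% rose. CPSF2, the inactive partner of the endonuclease, stood at 66.8, 74.3 and 72.8 CPM with dCeMM-2, 132.4, 118.4 and 130.1 with dCeMM-3, 33.9, 31.8 and 36.3 with dCeMM-4 and 83.7, 85.6 and 81.7 with THZ531, against 189.5, 161.9 and 173.6 in DMSO. Each of the 4 compounds lay below all DMSO libraries, and dCeMM-4 lay lowest in CPM; on the spike-in scale dCeMM-2 did (-3.07, against -2.93 with dCeMM-4). Its TMM log2 fold change was -2.36 ± 0.07 (SE) with dCeMM-4 (FDR 2.35e-25) and -0.46 ± 0.07 with dCeMM-3 (FDR 1.94e-07). CPSF3, the endonuclease, stood at 75.8, 83.9 and 87.1 CPM with dCeMM-2 and 39.8, 34.4 and 34.4 with dCeMM-4, against 109.7, 102.9 and 107.5 in DMSO, and fell by 0.38 on the log2 scale under dCeMM-2, 0.64 under dCeMM-3, 1.56 under dCeMM-4 and 0.79 under THZ531. The hexamer readers WDR33 and CPSF4 also fell with all 4, WDR33 most with dCeMM-3 (-1.77 on the TMM scale and -3.59 on the spike-in scale). CPSF4 was lowest with dCeMM-4 on the TMM scale only (-1.25), since on the spike-in scale it was -2.43 with dCeMM-2, -2.73 with dCeMM-3, -1.80 with dCeMM-4 and -2.68 with THZ531.

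SYMPK, the scaffold symplekin, was called lower on the TMM scale with dCeMM-4 and on the spike-in scale with all 4 compounds. It stood at 86.8, 78.9 and 88.1 CPM with dCeMM-2, 88.1, 100 and 82.1 with dCeMM-3 and 31.4, 29.7 and 32.9 with dCeMM-4, against 65.4, 80.0 and 79.7 in DMSO. In CPM the dCeMM-4 libraries were the lowest, the dCeMM-2 libraries overlapped DMSO, and the dCeMM-3 libraries lay just above DMSO, with a log2 fold change of 0.27 ± 0.09 on the TMM scale and -1.59 on the spike-in scale. FIP1L1, which tethers the poly(A) polymerase, stood at 38.7, 39.9 and 40.3 CPM with dCeMM-2, 15.6, 15.9 and 16.4 with dCeMM-3, 82.1, 85.4 and 80.0 with dCeMM-4 and 33.8, 31.4 and 28.9 with THZ531, against 62.7, 59.3 and 59.4 in DMSO. It was lowest with dCeMM-3 and above DMSO with dCeMM-4. FIP1L1 fell by 1.92 on the log2 scale under dCeMM-3 and 0.95 under THZ531, and rose by 0.45 under dCeMM-4 on the TMM scale, against -0.11 on the spike-in scale. In the annotation 45.7% of its exonic bases are shared with LNX1 or AC058822.1, which averaged 0.12 and 0 CPM in DMSO. Counts of such overlapping genes cannot be told apart where the strand setting is not stated. CPSF1, the largest subunit, stood at 380.8, 339.6 and 326.4 CPM with dCeMM-2, 284.7, 346.0 and 269.6 with dCeMM-3, 305.1, 343.4 and 403.5 with dCeMM-4 and 327.0, 303.2 and 321.6 with THZ531, against 169.1, 217.9 and 184.6 in DMSO. All 12 treated libraries were above the DMSO libraries on this scale, whereas its spike-in log2 fold changes were -0.93, -1.20, 0.32 and -1.12 in the same order of compounds.

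Within cleavage factor I, which steers the choice between poly(A) sites, the 3 genes went different ways. NUDT21, the subunit that binds RNA, rose by 0.60 to 0.67 on the TMM log2 scale with each of the 4 compounds, while on the spike-in scale it was -1.16 under dCeMM-2, -1.20 under dCeMM-3, 0.03 under dCeMM-4 and -1.15 under THZ531. CPM values of NUDT21 were 395.3, 368.1 and 425.9 with dCeMM-3 and 464.8, 392.6 and 392.9 with THZ531, against 287.4, 240.1 and 257.4 in DMSO, with no overlap. CPSF6, a larger subunit, stood at 394.1, 391.8 and 361.1 CPM with dCeMM-2, 149.9, 140.9 and 166.8 with dCeMM-3, 537.4, 537.0 and 491.8 with dCeMM-4 and 354.2, 341.9 and 339.6 with THZ531, against 238.6, 225.7 and 231.7 in DMSO. The dCeMM-3 libraries were below DMSO and those of the other 3 compounds above it. On the spike-in scale CPSF6 rose with dCeMM-4 (0.60) and fell with dCeMM-2 (-1.06), dCeMM-3 (-2.42) and THZ531 (-1.27). CPSF7, which can take the place of CPSF6 in the complex, stood at 27.3, 22.8 and 23.1 CPM with dCeMM-2, 19.2, 18.9 and 24.5 with dCeMM-3, 73.8, 81.5 and 73.6 with dCeMM-4 and 41.3, 38.6 and 36.4 with THZ531, against 128.7, 133.1 and 133.8 in DMSO. All its treated groups lay below DMSO, with dCeMM-4 the least. CPSF7 fell by 2.42 under dCeMM-2, 2.66 under dCeMM-3, 0.79 under dCeMM-4 and 1.77 under THZ531 on the TMM log2 scale.

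All 4 CstF genes fell with each of the 4 compounds, as did 19.9% of all genes tested. CSTF1, which helps CstF to pair with itself, stood at 9.95, 10.0 and 8.04 CPM with dCeMM-2, 3.29, 3.73 and 4.93 with dCeMM-3, 49.9, 49.0 and 51.9 with dCeMM-4 and 4.43, 4.91 and 3.86 with THZ531, against 74.6, 70.6 and 74.0 in DMSO. No group overlapped DMSO, and dCeMM-4 lay far closer to it than the others did. The log2 fold change of CSTF1 was -4.20 ± 0.13 with dCeMM-3 (FDR 6.67e-29), -4.05 ± 0.13 with THZ531 (FDR 3.69e-28) and -0.54 ± 0.08 with dCeMM-4 (FDR 2.22e-07). CSTF3, the subunit that bridges the other 2 and holds on to CPSF, stood at 12.6, 13.3 and 12.4 CPM with dCeMM-2, 16.2, 13 and 18.1 with dCeMM-3, 9.32, 12.9 and 10.9 with dCeMM-4 and 14.4, 12.2 and 12.2 with THZ531, against 76.2, 63.4 and 70.9 in DMSO. Its 4 treated groups were all well below DMSO and close to each other, with log2 fold changes between -2.66 and -2.14. Of the RNA-binding subunits, CSTF2 fell by 0.56 to 1.60 and its intronless copy CSTF2T by 1.33 to 2.26 on the log2 scale.

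Cleavage factor II has 2 genes here, PCF11 and CLP1. PCF11, which binds the polymerase tail, fell by 1.28 on the log2 scale under dCeMM-2, 1.91 under dCeMM-3, 0.68 under dCeMM-4 and 1.33 under THZ531. CLP1, an RNA kinase, stood at 14.3, 14.8 and 14.9 CPM with dCeMM-2, 1.58, 1.45 and 1.83 with dCeMM-3, 39.7, 38.5 and 37.3 with dCeMM-4 and 5.75, 5.88 and 6.54 with THZ531, against 28.7, 28 and 26.6 in DMSO. The dCeMM-3 libraries were lowest and the dCeMM-4 libraries were above DMSO, without overlap between groups. Its log2 fold change was -4.09 ± 0.17 with dCeMM-3 (FDR 2.52e-26) and 0.46 ± 0.08 with dCeMM-4 (FDR 5.68e-06), but the value with dCeMM-4 was -0.10 on the spike-in scale (FDR 0.732).

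Among the tail-making genes, the 2 nuclear poly(A) polymerases moved apart. PAPOLA, the main polymerase, stood at 213.1, 221.5 and 202.4 CPM with dCeMM-2, 272.0, 252.4 and 269.3 with dCeMM-3, 134.8, 118.1 and 135.0 with dCeMM-4 and 190.9, 176.4 and 171.4 with THZ531, against 105.5, 87.3 and 92.6 in DMSO. Every treated library was above every DMSO library on the TMM scale. Its TMM log2 fold change was 1.47 ± 0.07 with dCeMM-3 (FDR 1.37e-20), but on the spike-in scale PAPOLA gave -0.61 with dCeMM-2, -0.33 with dCeMM-3, -0.12 with dCeMM-4 and -0.91 with THZ531. PAPOLG, the other nuclear polymerase, stood at 9.73, 12.2 and 10.5 CPM with dCeMM-2, 9.73, 8.91 and 11.8 with dCeMM-3, 55.3, 50.8 and 52.3 with dCeMM-4 and 14.2, 10.9 and 11.3 with THZ531, against 60.6, 59.1 and 55.4 in DMSO. It was low with dCeMM-2, dCeMM-3 and THZ531, and with dCeMM-4 just below the DMSO libraries. PAPOLG fell by 2.44 under dCeMM-2, 2.53 under dCeMM-3 and 2.27 under THZ531 on the TMM log2 scale and had -0.15 under dCeMM-4 (FDR 0.111). PABPN1, the nuclear tail-binding protein, passed the threshold on the TMM scale only with dCeMM-4 among the 4 (0.28, against -0.30 on the spike-in scale), and 16.8% of its exonic bases are shared with the readthrough gene BCL2L2-PABPN1. RBBP6, a ubiquitin ligase needed for cleavage, stood at 93.4, 106.1 and 93.6 CPM with dCeMM-2, 33.1, 33.6 and 42.5 with dCeMM-3, 90.5, 94.8 and 93.6 with dCeMM-4 and 64.8, 61.1 and 65 with THZ531, against 103.2, 103.4 and 112.3 in DMSO. The dCeMM-3 libraries were lowest and dCeMM-2 overlapped DMSO. RBBP6 fell by 1.54 under dCeMM-3, 0.73 under THZ531 and 0.19 under dCeMM-4.

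Among the 6 termination factors, PPP1R10 had the lowest log2 fold change of all 39 genes with dCeMM-2, dCeMM-4 and THZ531. PPP1R10 encodes PNUTS, which brings a phosphatase to the polymerase past the poly(A) site. It stood at 0.891, 0.566 and 0.511 CPM with dCeMM-2, 0.592, 0.622 and 0.477 with dCeMM-3, 1.18, 1.10 and 0.854 with dCeMM-4 and 0.410, 0.263 and 0.473 with THZ531, against 12, 9.03 and 12.5 in DMSO. All 12 treated libraries were below the DMSO libraries by a wide margin. The log2 fold changes were -3.98 ± 0.31 with dCeMM-2 (FDR 2.43e-18), -4.26 ± 0.32 with dCeMM-3 (FDR 2.32e-19), -3.37 ± 0.23 with dCeMM-4 (FDR 3.61e-18) and -4.79 ± 0.39 with THZ531 (FDR 1.06e-19). PPP1R10 (chr6:30600400-30618612) lies in the region of the major histocompatibility complex, and the labels do not state whether alternate haplotypes were part of the reference. Its level per exonic kilobase was the second lowest of the 39 in DMSO. WDR82, a partner of PNUTS, stood at 57.0, 54.4 and 54.6 CPM with dCeMM-2, 25.8, 25.2 and 26.3 with dCeMM-3, 206.4, 204.5 and 205.1 with dCeMM-4 and 40.5, 37.9 and 40.1 with THZ531, against 232.3, 227.6 and 221.4 in DMSO. The dCeMM-4 libraries were close to DMSO and the others far below it. WDR82 fell by 2.04 under dCeMM-2, 3.14 under dCeMM-3, 0.15 under dCeMM-4 and 2.52 under THZ531.

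SCAF4 and SCAF8 bind the polymerase tail and hold back early poly(A) sites. SCAF8 stood at 65.4, 65.2 and 59.7 CPM with dCeMM-2, 16.8, 15.8 and 15.1 with dCeMM-3, 166.3, 168.2 and 167.5 with dCeMM-4 and 51.1, 44.5 and 43.2 with THZ531, against 72.9, 73.5 and 65.4 in DMSO. The dCeMM-3 libraries were lowest, the dCeMM-4 libraries lay above all others, and dCeMM-2 overlapped DMSO. The rise with dCeMM-4 was 1.23 ± 0.07 on the TMM log2 scale (FDR 4.52e-18) and 0.68 on the spike-in scale (FDR 0.00329), so SCAF8 rose on both. SCAF4 stood at 172.0, 163.8 and 141.8 CPM with dCeMM-2, 27.0, 28.1 and 33.4 with dCeMM-3 and 145.3, 155.1 and 174.6 with dCeMM-4, against 93.6, 103.6 and 103.5 in DMSO. It was below DMSO with dCeMM-3 and above DMSO with dCeMM-2 and dCeMM-4, where the spike-in values were -1.12 and 0.10. XRN2, the exonuclease that chases the polymerase, fell by 0.44 under dCeMM-3 and rose by 0.18, 0.48 and 0.15 under dCeMM-2, dCeMM-4 and THZ531 on the TMM scale, where the spike-in values were -1.60, -0.09 and -1.69. SSU72, a phosphatase of the polymerase tail, fell by 0.20 to 0.57 with the 4 compounds. With only dCeMM-3 and DMSO in the fit its value for dCeMM-3 was 0.03.

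The 13 Integrator genes among the 39 leave out the endonuclease INTS11. Of these 13, 12 fell with dCeMM-2, 12 with dCeMM-3, 11 with dCeMM-4 and 12 with THZ531, beside 41.2%, 45.1%, 35.3% and 43.7% of all genes tested. The exception with dCeMM-2, dCeMM-3 and THZ531 was INTS1, the largest scaffold subunit, which rose by 0.35, 0.42 and 0.27 on the TMM log2 scale and had -1.46, -1.43 and -1.60 on the spike-in scale. INTS1 stood at 87.2, 100.4 and 82.2 CPM with dCeMM-3, against 60.8, 72.4 and 69.0 in DMSO. The groups did not overlap. INTS5, a structural subunit, stood at 4.75, 5.58 and 5.36 CPM with dCeMM-2, 1.45, 1.35 and 1.27 with dCeMM-3, 23.7, 30.9 and 26.8 with dCeMM-4 and 2.71, 2.11 and 2.84 with THZ531, against 39.1, 43.9 and 37.6 in DMSO. Every treated library was below every DMSO library, and the dCeMM-4 libraries were the closest to DMSO. Its log2 fold change was -4.89 ± 0.21 with dCeMM-3 (FDR 4.15e-27), the lowest value of the 39 genes there, -3.98 ± 0.17 with THZ531 (FDR 1.77e-25) and -0.58 ± 0.09 with dCeMM-4 (FDR 7.98e-07).

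INTS13, which joins INTS14 and INTS10 in a side module, stood at 15.2, 17.1 and 19.1 CPM with dCeMM-2, 12.7, 12.2 and 14.1 with dCeMM-3, 67.7, 58.8 and 64.0 with dCeMM-4 and 11.4, 10.6 and 10.2 with THZ531, against 86.5, 79.6 and 81.1 in DMSO. It was low with dCeMM-2, dCeMM-3 and THZ531 and only somewhat below DMSO with dCeMM-4, with log2 fold changes of -2.29, -2.66, -2.94 and -0.38. INTS14, the partner of INTS13, stood at 34.2, 33.8 and 38.5 CPM with dCeMM-2, 44.8, 44.6 and 44.0 with dCeMM-3, 70.1, 70.0 and 71.5 with dCeMM-4 and 53.4, 44.7 and 47.1 with THZ531, against 187.7, 180.3 and 178.2 in DMSO. All its treated libraries were below DMSO. INTS3, which also forms part of a single-strand DNA binding complex, stood at 5.05, 4.04 and 4.08 CPM with dCeMM-2, 5.46, 6.12 and 6.75 with dCeMM-3, 1.99, 2.03 and 1.89 with dCeMM-4 and 3.37, 3.42 and 2.84 with THZ531, against 11.6, 12.1 and 10.9 in DMSO. In CPM the order was the other way round, with dCeMM-4 lowest and dCeMM-3 closest to DMSO. On the spike-in scale THZ531 was lowest (-3.69), and the difference between dCeMM-3 and dCeMM-4 (0.39) did not pass the threshold (FDR 0.203). INTS2, a structural subunit, stood at 14.5, 14.2 and 15.1 CPM with dCeMM-2, 20.1, 19.8 and 25.0 with dCeMM-3 and 7.77, 8.52 and 11.5 with dCeMM-4, against 44.7, 40.9 and 42.7 in DMSO, again with dCeMM-4 lowest in CPM and no overlap with DMSO. On the spike-in scale INTS2 had -3.33 with dCeMM-2, -2.78 with dCeMM-3, -2.76 with dCeMM-4 and -2.95 with THZ531, and dCeMM-3 and dCeMM-4 differed by -0.03 (FDR 0.928). INTS6, which sits in the phosphatase arm of the complex, fell by 0.85 under dCeMM-3 and 2.12 under dCeMM-4 on the log2 scale. INTS9, a catalytic-core partner of the endonuclease, fell by 2.05, 1.61, 1.89 and 1.68 with dCeMM-2, dCeMM-3, dCeMM-4 and THZ531. INTS8, which anchors the phosphatase, fell by 0.76 to 1.57, and 20.7% of its exonic bases lie opposite CCNE2, whose own log2 fold changes were -1.08, -2.48, 0.71 and -1.08 with dCeMM-2, dCeMM-3, dCeMM-4 and THZ531. INTS4, the other core partner, INTS7 and INTS10 also fell with all 4, and so did INTS14 by 1.37 to 2.37. INTS12, a small subunit, fell by 0.99 under dCeMM-2, 2.05 under dCeMM-3 and 2.12 under THZ531, and had 0.02 under dCeMM-4 (FDR 0.859).

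**Figure D2:**
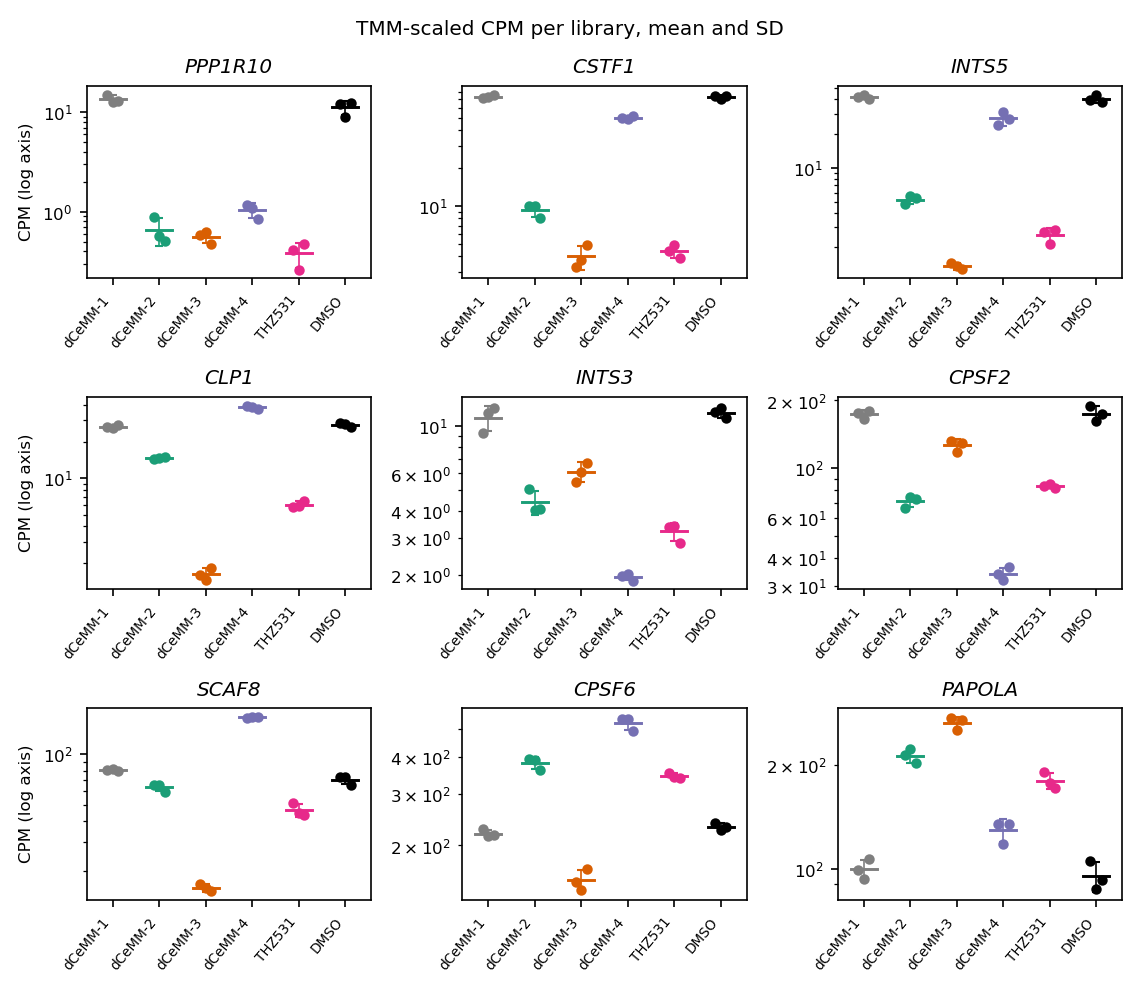
TMM-scaled CPM (log axes, which differ between panels) of 9 of the 39 genes in every library, by group from dCeMM-1 to DMSO; points are libraries, the wide bar is the mean and the whiskers the SD of 3. INTS5 and CLP1 are lowest with dCeMM-3, CSTF1 is lowest with dCeMM-3 and THZ531, INTS3 and CPSF2 are lowest with dCeMM-4 on this scale, SCAF8 and CPSF6 are highest with dCeMM-4 on this scale, and PAPOLA is above DMSO with dCeMM-2, dCeMM-3, dCeMM-4 and THZ531 on this scale only.

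dCeMM-1 at 10 times its EC50 left most of these genes near their DMSO level. Of the 39 genes, 7 rose and 6 fell, where 16.5% of all genes tested rose and 14.8% fell, the median log2 fold change was -0.01 beside 0.03 over all genes, and no member reached a 2-fold change. INTS2 stood at 62.6, 59.7 and 65.8 CPM with dCeMM-1, against 44.7, 40.9 and 42.7 in DMSO, CSTF2T at 55.6, 55.3 and 52.4 with dCeMM-1 against 42.0, 42.1 and 43.3 in DMSO, and PCF11 at 197.4, 190.9 and 220.7 with dCeMM-1 against 169.5, 158.7 and 158.3 in DMSO. Their log2 fold changes were 0.55 ± 0.09, 0.36 ± 0.12 and 0.32 ± 0.09, and INTS8 rose by 0.33 ± 0.07, with libraries at 154.7, 155.9 and 161.6 CPM with dCeMM-1, against 132.0, 121.1 and 122.7 in DMSO. None of these groups overlapped DMSO. INTS10 stood at 136.3, 135.2 and 139.1 CPM with dCeMM-1, against 208.8, 192.6 and 198.2 in DMSO, CSTF2 at 66.0, 61.4 and 63.8 with dCeMM-1 against 89.9, 86.9 and 87.0 in DMSO, and CPSF4 at 20.9, 19.0 and 20.2 with dCeMM-1 against 25.0, 29.1 and 25.3 in DMSO. They fell by 0.55 ± 0.06, 0.47 ± 0.07 and 0.42 ± 0.09 on the log2 scale, without overlap, and RBBP6 and INTS13 each by 0.24. On the spike-in scale no member was called with dCeMM-1 in edgeR, where 4.17% of all genes were, and at an unadjusted p under 0.05 there were 1 higher and 1 lower. There the values of INTS2 and INTS10 were 0.62 (FDR 0.0780) and -0.48 (FDR 0.179). The 7 rises were 4 without DMSO replicate 2, without dCeMM-1 replicate 1 or without dCeMM-1 replicate 2, 3 without dCeMM-1 replicate 3, and 4 in DESeq2.

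Scaled by the spike-in RNA, the same genes lay lower still with dCeMM-2, dCeMM-3 and THZ531. The labels do not give the spike-in dose relative to cells or RNA, and less RNA per cell cannot be told apart from fewer cells in a sample. All 39 fell with dCeMM-2 and all 39 with THZ531, where 83.0% and 84.7% of all genes fell. With dCeMM-3, 38 fell, where 83.7% of all genes did, and PAPOLA gave -0.33 (FDR 0.126). With dCeMM-4, 29 fell and CPSF6 and SCAF8 rose, where 48.0% of all genes fell and 6.30% rose, and 1 of these 2 rises remained without dCeMM-4 replicate 2. The median spike-in log2 fold change of the 39 genes was -2.76 with dCeMM-2, -3.32 with dCeMM-3, -1.12 with dCeMM-4 and -2.95 with THZ531, beside -1.80, -1.96, -0.56 and -1.94 over all genes. The median of the 39 genes minus that of all genes was -0.96, -1.36, -0.56 and -1.02 in the same order on this scale, and -0.97, -1.36, -0.57 and -1.03 on the TMM scale. PPP1R10 had -5.77, -6.07, -3.97 and -6.64 with dCeMM-2, dCeMM-3, dCeMM-4 and THZ531 on the spike-in scale. In reads per 1000 spike-in reads, PPP1R10 stood at 0.0850, 0.0414 and 0.0751 with THZ531, against 6.49, 6.08 and 8.41 in DMSO.

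**Figure D3:**
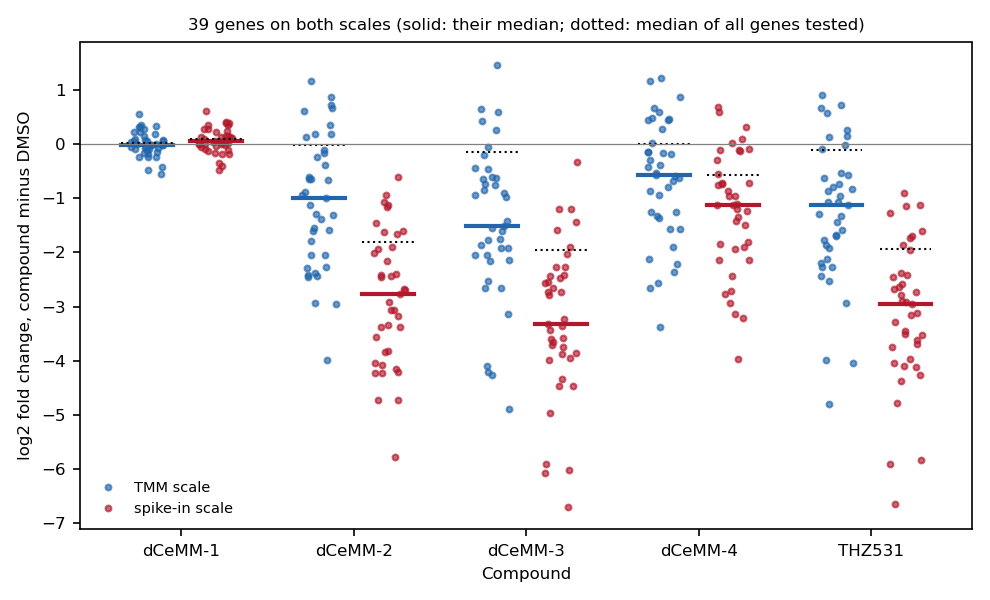
Log2 fold change of each of the 39 genes for each compound against DMSO on the TMM scale (blue) and the spike-in scale (red), one point per gene; solid bars are the medians of the 39 genes and dotted bars the medians of all 15055 genes tested. For dCeMM-2, dCeMM-3, dCeMM-4 and THZ531 the solid bar lies below the dotted bar on both scales, by 0.56 with dCeMM-4 to 1.36 with dCeMM-3 on the spike-in scale.

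dCeMM-2, dCeMM-3 and dCeMM-4, given at the same multiple of their EC50, were compared in 3 pairs. Between dCeMM-3 and dCeMM-4 the genes split: 13 were higher and 24 lower with dCeMM-3, where 41.5% of all genes were higher and 41.2% lower, and the TMM log2 differences ran from -4.55 to 1.90. CLP1 was lower by 4.55 (95% interval -4.93 to -4.18), INTS5 by 4.31 (-4.77 to -3.85), CSTF1 by 3.66 (-3.95 to -3.37) and SCAF8 by 3.39 (-3.58 to -3.21). CPSF2 was higher with dCeMM-3 by 1.90 (95% interval 1.74 to 2.06), INTS3 by 1.62 (1.22 to 2.02) and SYMPK by 1.52 (1.33 to 1.71). On the spike-in scale the genes higher with dCeMM-3 shrank to 1, CPSF2 (0.66), and 31 were lower, where 5.35% of all genes were higher and 65.3% lower. NUDT21 and SSU72 did not pass the threshold on the TMM scale, with intervals of the difference of -0.15 to 0.16 and -0.04 to 0.25, and both were lower with dCeMM-3 on the spike-in scale (-1.24 and -1.17).

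**Figure D4:**
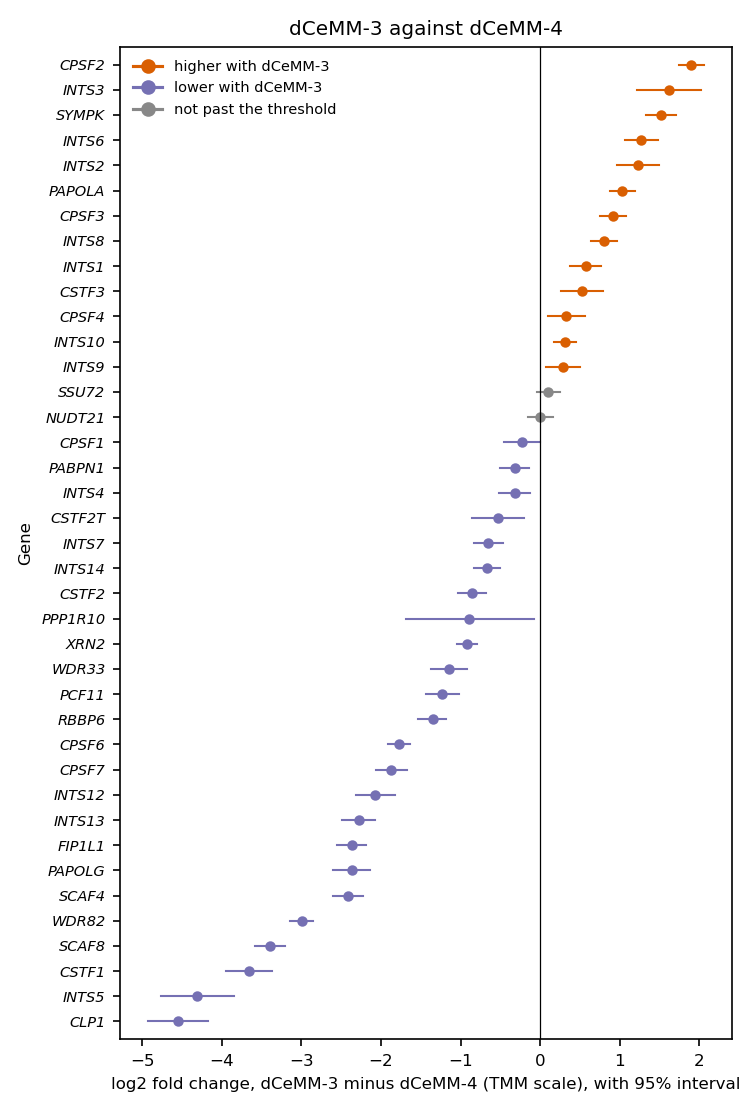
TMM-scaled log2 difference between dCeMM-3 and dCeMM-4 for the 39 genes, with 95% intervals (SE times the t quantile at 12 degrees of freedom); orange is higher with dCeMM-3, purple lower and grey past no threshold. CPSF2, INTS3 and SYMPK lie at the higher end and CLP1, INTS5 and CSTF1 at the lower end; on the spike-in scale only CPSF2 stays above 0 past the threshold.

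Between dCeMM-2 and dCeMM-3, CLP1 and SCAF4 differed most. With dCeMM-2, 15 members were higher and 9 lower than with dCeMM-3, where 26.6% of all genes were higher and 16.5% lower. CLP1 was higher with dCeMM-2 by 3.16 on the log2 scale (95% interval 2.77 to 3.55) and SCAF4 by 2.43 (2.24 to 2.63), and both stayed higher on the spike-in scale (3.20 and 2.46). CPSF2 was lower by 0.84 (-0.99 to -0.68) and INTS2 by 0.57 (-0.83 to -0.32). The 9 lower genes were 5 without dCeMM-3 replicate 3, and on the spike-in scale 12 genes were higher, beside 18.4% of all genes, and 1, CPSF2, was lower, beside 4.32%. That 1 was 2 without dCeMM-2 replicate 2 or without dCeMM-3 replicate 2. PPP1R10, CPSF7 and PAPOLG did not pass the TMM threshold between these compounds after adjustment, with unadjusted intervals of the difference of -0.66 to 1.21, 0.02 to 0.45 and -0.19 to 0.36.

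Against dCeMM-4, dCeMM-2 had 11 members higher and 19 lower, where 38.4% of all genes were higher and 38.9% lower. SYMPK was higher with dCeMM-2 by 1.43 (95% interval 1.24 to 1.63) and CPSF3 by 1.18 (1.01 to 1.35) on the TMM scale, but not on the spike-in scale (0.21, FDR 0.384, and -0.02, FDR 0.946). CSTF1 was lower by 2.41 (-2.64 to -2.17) and INTS5 by 2.38 (-2.67 to -2.09), and 34 of the 39 were lower on the spike-in scale, where 66.8% of all genes were. THZ531 was given at a fixed concentration and was set beside the others without a test. Against the DMSO libraries they share, the TMM log2 fold changes with THZ531 and with dCeMM-2 were -2.43 and -2.46 for CSTF3, -1.59 and -1.59 for WDR33, -2.20 and -0.93 for CLP1, and -2.12 and -0.99 for INTS12.

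Related gene pairs were read as a log2 ratio of their CPM, a quantity that no library scale touches. PAPOLA over PAPOLG was 4.30 ± 0.14 with dCeMM-2, 4.72 ± 0.17 with dCeMM-3, 1.29 ± 0.07 with dCeMM-4 and 3.90 ± 0.14 with THZ531, against 0.70 ± 0.12 in DMSO (mean ± SD, n = 3 each). CPSF6 over CPSF7 was 3.97 ± 0.13, 2.88 ± 0.10, 2.77 ± 0.08 and 3.16 ± 0.06 with the same 4 compounds, against 0.81 ± 0.07 in DMSO. Both ratios were higher than in DMSO in all 12 treated libraries, and each exact two-sided permutation test gave p = 0.1, the smallest that 3 against 3 allows. With dCeMM-1, CSTF2 over CSTF2T was 0.23 ± 0.07, against 1.05 ± 0.05 in DMSO, while dCeMM-2, dCeMM-3, dCeMM-4 and THZ531 gave 1.84 ± 0.53, 1.55 ± 0.35, 1.83 ± 0.07 and 2.05 ± 0.18, so this ratio lay below DMSO with dCeMM-1 and above it with the others (exact p = 0.1 each). SCAF4 over SCAF8 was below DMSO with dCeMM-4 (-0.08 ± 0.13, against 0.51 ± 0.15 in DMSO) and above it with dCeMM-2 (1.32 ± 0.07). INTS13 over INTS14 was -0.15 ± 0.10 with dCeMM-4 and -2.17 ± 0.08 with THZ531, against -1.14 ± 0.03 in DMSO (exact p = 0.1 each). dCeMM-1 also gave values below DMSO for PAPOLA over PAPOLG (0.48 ± 0.04), SCAF4 over SCAF8 (0.29 ± 0.06) and INTS13 over INTS14 (-1.46 ± 0.12, exact p = 0.1 each). CPSF6 over CPSF7 with dCeMM-1 overlapped DMSO (0.70 ± 0.08, exact p = 0.2).

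In DMSO the level per exonic kilobase ran from 71.9 ± 3.43 CPM per kb for XRN2 to 1.10 ± 0.0543 for INTS3 (SD, n = 3). The divisor was the joined length of all annotated exons of a gene, not the length of 1 transcript. It was 25509 bases for INTS6, at 77.5 CPM, and 4800 for CSTF1, at 73.0 CPM and 15.2 CPM per kb. The order therefore also reflects how much of a gene is annotated as exon. NUDT21 (43.9 ± 4.02), INTS14 (43.3 ± 1.19), CSTF2 (40.2 ± 0.781) and WDR82 (39.7 ± 0.961) followed XRN2, and INTS6 (3.04 ± 0.196) and PPP1R10 (2.14 ± 0.358) came before INTS3. Exonic bases shared with another annotated gene made up 25.6% of WDR33, 21.7% of INTS12, 18.9% of PCF11 and 14.5% of CSTF3, and GSTCD, which overlaps INTS12, averaged 33.2 CPM in DMSO. Of the 38 pairs of neighbours in this order, 24 overlapped in their 3 DMSO libraries, among them NUDT21 and INTS14. Long and short genes were set side by side: 15 members spanning at least 50 kb had a median log2 fold change of -1.06 with THZ531 and -1.51 with dCeMM-3, and the 24 shorter members -1.30 and -1.48. Spearman's rho across the 39 genes, which are not independent replicates, was 0.18 between span and the THZ531 fold change and -0.08 for dCeMM-4. INTS5 spans 6455 bases and PPP1R10 18213, whereas INTS4 spans 115959 and fell by 0.54 with THZ531.

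Other genes of the same pathways were described from lists of 56 genes in 5 groups, with calls and log2 fold changes on the TMM scale. Their counts stand beside falls of 41.2%, 45.1%, 35.3% and 43.7% of all genes with dCeMM-2, dCeMM-3, dCeMM-4 and THZ531, and rises of 37.1%, 35.9%, 32.9% and 35.8%. On the spike-in scale all 56 fell with dCeMM-2, dCeMM-3 and THZ531, beside 83.0%, 83.7% and 84.7% of all genes. With dCeMM-4 there, 9 of the 19 termination and phosphatase genes fell and 2 rose, and 9 of the 15 decay genes fell and 1 rose. Of the 6 histone, 9 snRNA promoter and 7 Integrator-associated genes, 4, 5 and 3 fell and 0 rose. Of all genes 48.0% fell and 6.3% rose. Calls below are on the TMM scale unless stated. All 6 genes of histone 3′ end processing fell with dCeMM-2, dCeMM-3 and THZ531 and 4 of 6 with dCeMM-4, where the other 2 rose, with ZNF473, a part of the histone cleavage complex, at -4.13 with dCeMM-3 and NPAT, the histone gene activator, at -3.13 with THZ531. Of 15 genes of nuclear poly(A) RNA binding and decay, 14 fell with dCeMM-2, 15 with dCeMM-3, 6 with dCeMM-4 and 15 with THZ531, while 6 others rose with dCeMM-4 and 1 with dCeMM-2. EXOSC3, an exosome subunit, had -3.10 with dCeMM-2, and RBM27 had -3.40 with dCeMM-3 and 0.59 with dCeMM-4. Of 19 further termination and polymerase phosphatase genes, 12 fell and 5 rose with dCeMM-2, 14 fell and 2 rose with dCeMM-3, 8 fell and 9 rose with dCeMM-4, and 14 fell and 4 rose with THZ531. ZC3H4, which restrains unproductive transcripts, had -3.34, -3.73, -1.05 and -3.77 with dCeMM-2, dCeMM-3, dCeMM-4 and THZ531. Of 9 snRNA promoter and export genes, 8 fell and 0 rose with dCeMM-2, 6 fell and 2 rose with dCeMM-3, 5 fell and 4 rose with dCeMM-4, and 8 fell and 0 rose with THZ531. PHAX, the snRNA export adaptor, had -3.03 with dCeMM-3 and 0.75 with dCeMM-4, and ICE1, a scaffold of the little elongation complex, -2.67 and 0.30. Of 7 other Integrator-associated genes, 3 fell and 3 rose with dCeMM-2, 4 fell and 1 rose with dCeMM-3, 2 fell and 4 rose with dCeMM-4, and 5 fell and 1 rose with THZ531. INTS11, the Integrator endonuclease, is in this list and not among the 39, and is named after its values were seen. It stood at 135.5, 127.1 and 128.3 CPM with dCeMM-2, 123.2, 127.7 and 105.1 with dCeMM-3, 94.5, 99.7 and 107.7 with dCeMM-4 and 107.6, 121.8 and 121.7 with THZ531, against 60, 65.8 and 64.8 in DMSO. It rose with all 4 on the TMM scale, by 1.04, 0.90, 0.67 and 0.88, whereas on the spike-in scale it had -0.76, -0.94, 0.10 and -0.98, with a fall called for dCeMM-2, dCeMM-3 and THZ531. The elongation factor ELL had -2.73 with dCeMM-3 and 0.93 with dCeMM-4, and the DNA-binding partner NABP1 had -2.28 with dCeMM-4.

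snRNA genes, whose precursors Integrator cuts, were read in far larger numbers after dCeMM-2, dCeMM-3 and THZ531. These libraries were poly-A enriched, and mature snRNAs carry no poly(A) tail. Over 13 snRNA genes of RNA polymerase II the summed counts per 1000000 gene counts, without TMM scaling, were 39.9, 39.8 and 42.6 with dCeMM-2, 56.0, 31.3 and 67.2 with dCeMM-3, 3.88, 4.18 and 4.40 with dCeMM-4, 29.8, 39.3 and 34.6 with THZ531 and 1.64, 1.03 and 0.671 with dCeMM-1, against 0.885, 0.766 and 1.09 in DMSO. The dCeMM-2, dCeMM-3, dCeMM-4 and THZ531 libraries all lay above all DMSO libraries, and dCeMM-1 overlapped them. The ratio of the means to DMSO was 44.7 with dCeMM-2, 56.4 with dCeMM-3, 4.55 with dCeMM-4, 37.9 with THZ531 and 1.22 with dCeMM-1, and per spike-in count it was 15.6, 19.2, 3.57, 12.7 and 1.20. The sums rest on few genes: RNU5A-1 gave 942 of the 1480 counts with dCeMM-2 and 1177 of the 2073 with dCeMM-3, RNU4ATAC and RNU4-2 gave most of the others, RNU2-1 and RNU12 had 0 counts in all 18 libraries and RNU1-1 had 1. Of the 13, 8 passed the filter on low counts, and a gene near 0 in DMSO could pass it only through the treated groups, so no count of calls is given for them.

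RNU5A-1, a U5 snRNA of the spliceosome, stood at 27.9, 27.2 and 29.4 CPM with dCeMM-2, 31.9, 20.3 and 39.4 with dCeMM-3, 2.30, 2.03 and 2.62 with dCeMM-4 and 20.5, 25.3 and 24.1 with THZ531, against 0.116, 0.209 and 0.575 in DMSO, with a TMM log2 fold change of 7.10 with dCeMM-3 and 3.36 with dCeMM-4. RNU4ATAC, a minor-spliceosome snRNA, had 179 counts with dCeMM-2, 355 with dCeMM-3, 17 with dCeMM-4 and 211 with THZ531, against 0 in the 3 DMSO libraries. Taking 3 counts over the DMSO group as the limit that 0 allows, it was at least 61.0-fold higher with dCeMM-2, at least 113.1-fold with dCeMM-3, at least 4.11-fold with dCeMM-4 and at least 65.9-fold with THZ531 per gene count. RNU11, another minor-spliceosome snRNA, had 42, 53, 5 and 32 counts with these compounds, against 0 in DMSO. As a comparison chosen after these values were seen, 11 small RNA genes of RNA polymerase III, whose transcripts also lack tails and are not cut by Integrator, summed to 1.75, 1.65 and 1.55 counts per 1000000 with dCeMM-2, 1.68, 1.98 and 2.16 with dCeMM-3, 1.00, 1.39 and 0.904 with dCeMM-4 and 1.85, 2.30 and 1.84 with THZ531, against 0.949, 1.06 and 1.74 in DMSO, with ratios of means of 1.32, 1.55, 0.88 and 1.60. Per spike-in count the ratios of this RNA polymerase III list were 0.459, 0.508, 0.69 and 0.534 in the same order of compounds. Whether Integrator had a part in the difference between the classes was not tested. RN7SL2 made up 48 of the 61 counts with dCeMM-2 and 32 of the 41 in DMSO, and RN7SK, RN7SL1 and RPPH1 had 0. In the annotation RN7SK, RN7SL1 and RPPH1 overlap another gene on the same strand (RF00100, AL139099.4 and AL355075.4). So do RNU2-1 and RNU12 of the RNA polymerase II list (CCDC200 and Z93241.1), which also had 0 counts. Reads shared by overlapping genes can be set aside as ambiguous, so a value of 0 there may not measure the RNA. RN7SL2, RNU11 and RNU4ATAC have such overlaps too and had counts. The part of the overlaps in these sums was not tested. VTRNA1-1 had 7, 13, 4 and 14 counts with dCeMM-2, dCeMM-3, dCeMM-4 and THZ531, against 4 in DMSO, and RNU6ATAC had 3, 11, 0 and 5, against 2 in DMSO. Counts of both classes are small, and reads that match several copies were left out of them, a share that was 36.0% ± 0.649 with dCeMM-2, 41.0% ± 2.97 with dCeMM-3, 29.4% ± 0.658 with dCeMM-4 and 37.4% ± 2.05 with THZ531, against 28.3% ± 1.03 in DMSO. RNU4ATAC lies opposite CLASP1 and RNU5A-1 opposite PARP16, so reads of those genes cannot be told apart from theirs without the strand. The part of these in the result was not tested.

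**Figure D5:**
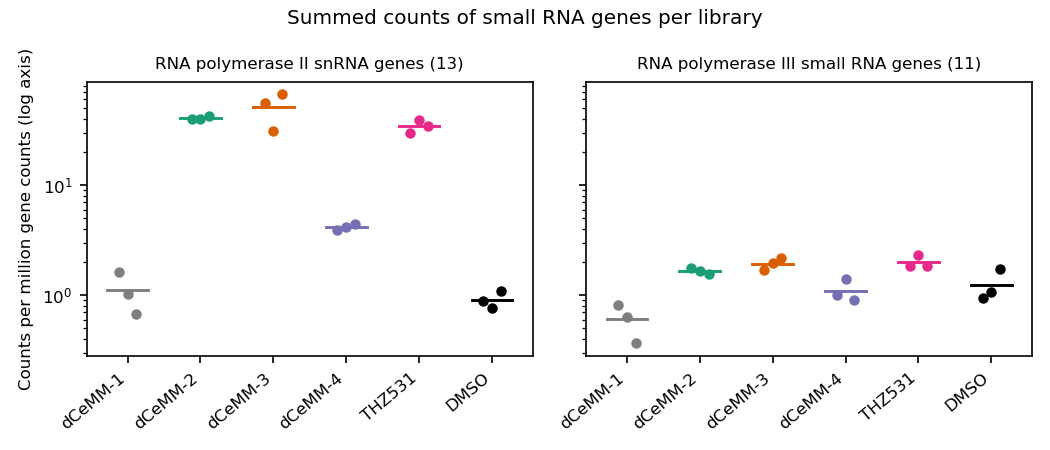
Summed counts per 1000000 gene counts (log axis, shared) of 13 RNA polymerase II snRNA genes (left) and 11 RNA polymerase III small RNA genes (right) in every library, by group; points are libraries and bars are means of 3. In the left panel the libraries lie between 29.8 and 67.2 with dCeMM-2, dCeMM-3 and THZ531, against 0.766 to 1.09 in DMSO, and the right panel stays between 0.366 and 2.30.

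Reads assigned to no annotated gene, among which reads past the ends of genes would fall, made up 7.46% ± 1.03 with dCeMM-2, 5.24% ± 0.851 with dCeMM-3, 8.28% ± 0.669 with dCeMM-4, 7.15% ± 1.87 with THZ531 and 5.74% ± 0.301 with dCeMM-1, against 5.13% ± 0.405 in DMSO (mean ± SD, n = 3 each). All libraries of dCeMM-1, dCeMM-2 and dCeMM-4 lay above all DMSO libraries, each with an exact two-sided permutation p = 0.1, the smallest possible. dCeMM-3 overlapped DMSO (exact permutation p = 1), and so did THZ531 (exact permutation p = 0.3), whose replicate 1 was at 4.99% and replicates 2 and 3 at 8.27% and 8.18%. Taken per read assigned to a gene or to none, the share was 9.09% ± 1.36 with dCeMM-3 and 11.6% ± 2.74 with THZ531, against 7.30% ± 0.475 in DMSO, with dCeMM-3 again overlapping DMSO and THZ531 above it. The tables do not say where these reads fell, so introns and the flanks of genes cannot be told apart.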

How the data were processed

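Poly-A enriched RNA of KBM7 cells was sequenced in 18 libraries, 3 in each of 6 groups, with spike-in RNA (ERCC and SIRV) added. The authors deposited read counts per gene; per the submitters' processing notes, Trimmomatic 0.32, STAR 2.5.2b, Picard and HTSeq 0.11.2 were used with GRCh38.p7, in roles and with a strand setting not given in the sources used here. Identifiers were named through GENCODE release 29, which matched 57447 of 58051. Rows for reads in no gene, ambiguous or not unique were kept out of library sizes and tests and are reported as shares.

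Counts were tested with edgeR 4.0.16 (quasi-likelihood test, all 18 libraries, 1 coefficient per group, 12 residual degrees of freedom) under R 4.3.3, on 15055 genes past filterByExpr. Library scale came from TMM on endogenous genes, or from the summed counts of 92 ERCC sequences and 7 SIRV genes. A call is a Benjamini-Hochberg adjusted p under 0.05 over all genes tested. Intervals are 95%, and shares of reads were compared by exact permutation tests with SciPy 1.17.1. Intervals and floors cover counting error and the spread between libraries only. The members and the lists were chosen with earlier results of these data known. Members shown library by library were the 4 largest rises and falls called against DMSO, the 2 largest in each direction between compounds, and the related pairs. CPSF3, CSTF2T, INTS2 and others were added where a role called for it. Genes of other lists are from the 3 with the largest fold change called per list.

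Alternatives were DESeq2 1.42.0, its size factors inside edgeR, no filter on low counts, only the 2 groups compared, a replicate block, each library left out, ERCC or SIRV alone, and another denominator for shares. Chosen after seeing the data were the count in all 4 comparisons without THZ531 replicate 1, the RNA polymerase III list and the split by AATAAA. On simulated data for THZ531 against DMSO (14487 genes), edgeR called 100% of 103 genes changed 2-fold, 92.8% of 97 changed 1.5-fold, and 14 of 14287 unchanged genes. The simulation gave every gene the same dispersion and changed only these genes, drawn from those above a set expression level. No simulated library stood apart from its group. In the real comparison most genes tested were called, so these rates cannot be carried over to it.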

Additional observations from a re-analysis of the deposited data

How the results depend on the processing

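The number of members rising with dCeMM-1 was 7 in edgeR, 4 in DESeq2 and 3 to 7 with 1 library left out; the members lower with dCeMM-2 than with dCeMM-3 were 9, and 5 to 10 with 1 library left out. On the spike-in scale the members higher with dCeMM-4 were 2 (1 to 3 with 1 library left out), and those lower with dCeMM-2 than with dCeMM-3 were 1 (1 to 2).

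The share of reads in no gene exceeded that of DMSO by 2.33 points with dCeMM-2, 0.109 with dCeMM-3, 3.16 with dCeMM-4 and 2.02 with THZ531. With gene and no-gene reads as the denominator these differences were 4.65, 1.79, 4.69 and 4.34. With 1 library left out they were 1.85 to 2.88 with dCeMM-2, -0.334 to 0.514 with dCeMM-3, 2.77 to 3.39 with dCeMM-4, 1.46 to 3.1 with THZ531 and 0.376 to 0.772 with dCeMM-1.

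In single members, SSU72 with dCeMM-3 was -0.20 and turned to 0.03 with only the 2 groups compared, and SCAF4 with THZ531 was -0.01 and turned to 0.18. Of the 312 pairs of a member and a comparison on the TMM scale, 296 kept their call in DESeq2, 296 with its size factors and 291 with no filter on low counts. With only the 2 groups compared, 297 kept it, 6 gained a call, 6 lost it and 2 turned direction. A kept call means a call in the same direction in both fits, or in neither, where the direction was not compared. Of the 312 on the spike-in scale all 312 kept their call with ERCC sequences only and all 312 with SIRV genes only. The cause of the changes was not tested.

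Replicate numbers showed no clear pairing of the libraries. The 45 pairs with the same number had correlations of deviations from -0.144 to 0.125, and 90 pairs with different numbers from -0.116 to 0.103. Of 18 libraries, 9 correlated best with a library of their own number. A pairing cannot be decided from these values. With the replicate number as a block, 310 of the 312 TMM results kept their call and 2 more passed the threshold. The members rising with dCeMM-1 were then 8 and those falling with THZ531 30. Depth limits the values of members with few counts, such as PPP1R10, INTS3, and INTS5 and CLP1 with dCeMM-3, and those of the snRNA genes.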
